A study of Homo sapiens with 4 samples.

Results

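SOX genes encode transcription factors that share an HMG box, a domain that binds short sequences in the minor groove of DNA and bends it. The 10 described here were SOX2, SOX3, SOX4, SOX5, SOX6, SOX9, SOX10, SOX11, SOX12 and SOX13, read through every probe set whose annotation named exactly 1 of them. They had 38 of the 49293 probe sets for cellular transcripts, and were 10 of 18244 genes with a probe set of their own. All samples were Kelly cells, an established human neuroblastoma line that carries MYCN amplification and active ALK kinase, in a form resistant to the ALK inhibitor TAE684 and grown with 1 µM of it. The shBORIS group (2 arrays) carried a short hairpin RNA against BORIS, the protein of the CTCFL gene, a germ-line relative of the genome-folding factor CTCF. The shLUC group (2 arrays) carried a hairpin against luciferase as control. In both groups the virus was left on the cells for 24 h with 8 µg/ml polybrene and puromycin selection lasted 48 h. The labels call each pair of arrays biological duplicates, name 1 hairpin construct per target and do not say whether the resistant line is 1 clone. The p-values therefore rest on spread between duplicates only. As deposited this is the common spread of genes of like intensity, not that of the single gene. In RNA from whole cultures, fewer expressing cells and less RNA per cell cannot be told apart.

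SOX proteins are grouped by the sequence of the HMG box. SOX2 and SOX3 belong to SoxB1, the group that keeps neural progenitors undifferentiated, and SOX4, SOX11 and SOX12 form SoxC, which is active in young neurons and in the developing sympathetic ganglia from which neuroblastoma arises. SOX9 and SOX10 are SoxE factors of neural crest, cartilage, glia and pigment cells, and SOX5, SOX6 and SOX13 are SoxD factors, which have no activation domain of their own and often work beside SoxE.

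The 5′ flanks of SOX2, SOX4 and SOX12 are shown so that 1 gene that rose, 1 that fell and 1 that passed no test relative to the median gene can be compared; SOX11 had no entry. Each line is the 250 bases before the start in RefSeq's promoter table for GRCh38.p14, read 5′ to 3′ on the gene's own strand, which is the plus strand for all of them: chr3:181711675-181711924 for SOX2, chr6:21593501-21593750 for SOX4 and chr20:325302-325551 for SOX12. Capitals mark matches to 4 motifs searched on both strands. These were CACGTG, the E-box bound by MYCN with MAX, ACAATG and ACAAAG, a pair of SOX-type sites and a reduced core of the CTCF site, which BORIS with its like zinc fingers also binds, searched as CC, any 3 bases, AG, any 2 bases and GGC.
SOX2: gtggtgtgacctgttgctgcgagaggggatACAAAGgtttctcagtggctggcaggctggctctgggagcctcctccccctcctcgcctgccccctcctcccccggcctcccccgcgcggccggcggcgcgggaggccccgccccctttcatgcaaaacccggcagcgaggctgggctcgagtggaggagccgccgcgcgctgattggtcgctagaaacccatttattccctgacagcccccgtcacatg
SOX4: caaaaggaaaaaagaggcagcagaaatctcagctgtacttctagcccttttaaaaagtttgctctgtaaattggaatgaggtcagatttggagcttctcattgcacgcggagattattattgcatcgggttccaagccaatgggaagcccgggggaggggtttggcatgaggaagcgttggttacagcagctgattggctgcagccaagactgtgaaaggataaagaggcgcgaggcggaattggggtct
SOX12: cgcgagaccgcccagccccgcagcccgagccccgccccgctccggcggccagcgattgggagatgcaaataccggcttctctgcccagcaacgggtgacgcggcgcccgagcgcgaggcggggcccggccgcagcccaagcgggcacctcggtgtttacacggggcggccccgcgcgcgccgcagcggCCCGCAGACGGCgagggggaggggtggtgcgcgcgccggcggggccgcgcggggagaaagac
The SOX2 flank held 1 match to ACAAAG, starting 220 bases before the gene, and 13.8% of 34788 flanks of this length held that motif. The SOX12 flank held 1 match to the CTCF-type core, CCCGCAGACGGC, starting 62 bases before the gene, and 8.9% of all flanks held the core. The SOX4 flank held no match. ACAATG was in 9.29% and the E-box in 6.31% of all flanks and in none of these 3. Their GC content was 68.8% for SOX2, 48.8% for SOX4 and 79.2% for SOX12, against a median of 58.0% over all flanks. Of the 10 SOX genes, 7 had an entry in the table and SOX9, SOX10 and SOX11 did not. A match is a run of letters; binding was not measured.

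Some facts of the arrays are needed to read the values. CTCFL, the gene the hairpin targets, had deposited intensities of 701 and 737 with shBORIS and 3563 and 3376 with shLUC in its brightest probe set, 4.74-fold lower. Of its 7 probe sets 5 fell, by 2.39-fold to 8.29-fold, 1 differed by 0.11 on the log2 scale as deposited (limma adjusted p = 0.404), and 1 under the intensity minimum rose by 0.39 (limma adjusted p = 0.00165). The arrays of the groups were not equally bright: the median cellular probe set lay at 80.8 and 84.5 with shBORIS and at 64.4 and 60.4 with shLUC, while the median of the synthetic ERCC spike-in RNAs lay between 24.4 and 25.8 on all 4. The median gene was therefore 0.48 higher with shBORIS on the log2 scale as deposited, and each change is given as deposited and then relative to the median gene, with that shift removed. Each gene was read through its brightest probe set, and genes with a mean intensity under 62.2, the 40th percentile, were not tested. Background control probe sets had medians of 15.4 to 16.9. The ERCC median lay not far above them, so scaling to the ERCC RNAs rests on a dim value. Adjusted p-values are limma's, over all genes tested or over all cellular probe sets, and log2 differences are of log2(intensity + 16), which understates the change of dim probe sets.

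Of the 10 SOX genes, 5 were bright enough to be tested: SOX2, SOX4, SOX9, SOX11 and SOX12. As deposited, SOX2, SOX4, SOX9 and SOX12 rose with shBORIS and SOX11 fell. Of all 10946 genes tested, 77.2% rose and 4.64% fell on that scale, so 4 rises among 5 genes are near the background. Relative to the median gene, SOX2 rose, SOX4 and SOX11 fell, and SOX9 and SOX12 did not pass the test, where 30.3% of all genes were higher and 28.8% lower. SOX11 was the one of the 5 that fell on both scales, and its calls held under all 14 alternative settings tried on each scale. Some of these settings are the same fit on both scales.

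**Figure D1:**
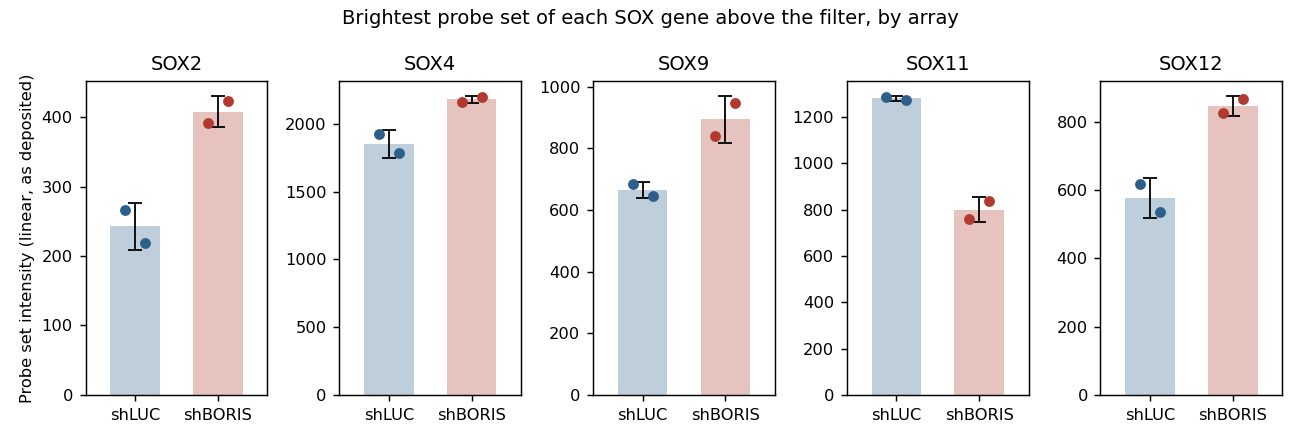
Deposited probe set intensity (linear, from 0, with its own scale for each gene) of the brightest probe set of SOX2, SOX4, SOX9, SOX11 and SOX12. Points are single arrays, bars group means and whiskers the SD of 2 arrays; the groups do not overlap for any of the 5 genes, and SOX11 is the one whose shBORIS arrays lie below the shLUC arrays. Of all genes tested 83.8% were higher and 6.65% lower without overlap.

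SOX2, the SoxB1 factor that maintains neural and pluripotent progenitors, had the largest rise among the 5 tested genes. Its brightest probe set read 392 and 424 with shBORIS and 266 and 219 with shLUC. Both shBORIS arrays were above both shLUC arrays. The group means were 408 ± 22.6 and 243 ± 33.6 (SD, n = 2 each), a log2 difference of 0.72 as deposited (SE 0.11; limma adjusted p = 3.61e-10), or 1.64-fold. Genes in the same decile of mean intensity had a median difference of 0.53 on that scale. Relative to the median gene SOX2 rose by 0.24 (SE 0.07; limma adjusted p = 0.0125), or 1.18-fold. This relative call was lost without shLUC replicate 2 (0.16) and with the filter at the 60th percentile (0.17, limma adjusted p = 0.056). It was also lost after quantile normalization (0.17, limma adjusted p = 0.0693). That fit is the same for both scales, so the deposited call was lost with it.

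All 3 SOX2 probe sets rose as deposited, and 2 of them rose relative to the median gene. The second read 327 and 362 against 198 and 208, a deposited difference of 0.72 and a relative one of 0.24 (limma adjusted p = 0.0138), which was lost without shBORIS replicate 2 (limma adjusted p = 0.076) or shLUC replicate 1 (limma adjusted p = 0.104). In the fit over all probe sets the relative call of the brightest was also lost without shBORIS replicate 2 (limma adjusted p = 0.0564) or shLUC replicate 2 (limma adjusted p = 0.0909). The third read 130 and 159 against 94.2 and 96.4, a deposited difference of 0.52 (limma adjusted p = 9.22e-06), and its relative difference of 0.04 did not pass (limma adjusted p = 0.683). The probe sets thus shared a direction, and their relative differences ran from 0.04 to 0.24.

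SOX3, the X-linked SoxB1 factor of hypothalamic and pituitary development, was under the intensity minimum with both of its probe sets. The brighter one read 47.3 and 46.1 with shBORIS and 36.3 and 34.6 with shLUC, 0.28 higher as deposited (limma adjusted p = 0.0248) and -0.19 relative to the median gene (limma adjusted p = 0.113). The other read 17.1 and 24.8 against 23.1 and 22.9, within reach of the background probe sets.

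SOX11, the SoxC factor of immature neurons and sympathetic progenitors, fell. Its brightest probe set read 761 and 840 with shBORIS and 1288 and 1274 with shLUC. The groups were far apart compared with their spread, at 801 ± 55.2 and 1281 ± 10.1 (SD, n = 2 each). The difference was -0.67 as deposited (SE 0.11; limma adjusted p = 7.81e-09), 1.59-fold lower, while genes of the same intensity decile had a median difference of 0.62. Relative to the median gene SOX11 fell by 1.15 (SE 0.05; limma adjusted p = 3.8e-07), 2.21-fold lower, which placed it 108th from the lowest of 10946 genes. Over the 14 alternatives the deposited difference ran from -1.24 to -0.55 with a largest limma adjusted p of 2.98e-04. The alternatives to the relative scale gave -1.24 to -0.71 with a largest limma adjusted p of 1.28e-05. The -1.24 (quantile normalization) and -0.71 (ERCC scaling) come from fits that are the same under both scales.

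All 4 SOX11 probe sets fell relative to the median gene, and 3 of them fell as deposited. One read 239 and 278 against 473 and 372, with falls of -0.67 on the deposited scale (limma adjusted p = 3.59e-09) and -1.15 on the relative one. Another read 97.9 and 102 against 172 and 174, and fell by 0.71 as deposited (limma adjusted p = 1.14e-09). The exception read 169 and 183 with shBORIS and 183 and 210 with shLUC, so that its highest shBORIS array met its lowest shLUC array. Its difference was -0.14 as deposited (limma adjusted p = 0.272) and -0.62 relative to the median gene (limma adjusted p = 9.93e-05).

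SOX4, the SoxC factor expressed across neural and epithelial progenitors, differed little. Its brightest probe set read 2164 and 2198 with shBORIS and 1927 and 1781 with shLUC, means of 2181 ± 24.2 and 1854 ± 103 (SD, n = 2 each). The arrays did not overlap, and the difference was 0.23 as deposited (SE 0.10; limma adjusted p = 0.0321), 1.18-fold, where genes of the same intensity decile had a median of 0.47. Relative to the median gene SOX4 fell by 0.24 (SE 0.05; limma adjusted p = 0.00173). All 7 of its probe sets rose as deposited, by 0.23 to 0.49, and 3 of the 7 fell relative to the median gene, where the range was -0.24 to 0.01. Without shLUC replicate 2, 5 of the 7 deposited calls were lost, and without shBORIS replicate 2, 3 were. Without shBORIS replicate 1, 2 of the 3 relative falls were lost (limma adjusted p = 0.0716 and 0.178).

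The direction of SOX4 depended on the scale. The rise as deposited was lost without shBORIS replicate 2 (limma adjusted p = 0.0768), without shLUC replicate 1 (limma adjusted p = 0.0581) and without shLUC replicate 2 (limma adjusted p = 0.264), and after quantile normalization SOX4 was lower, at -0.26 (limma adjusted p = 0.00127). The relative fall was lost when probe sets were averaged (-0.09; limma adjusted p = 0.0757) and when arrays were centred on all cellular probe sets (-0.10; limma adjusted p = 0.153). Scaled to the ERCC spike-ins in place of the median gene, SOX4 was higher, at 0.20 (limma adjusted p = 0.0469). CASC15, a noncoding gene at the SOX4 locus, was under the intensity minimum, at 12.9 and 11.1 with shBORIS and 11.8 and 16.6 with shLUC. Its difference was -0.10 as deposited (limma adjusted p = 0.5) and -0.58 relative to the median gene (limma adjusted p = 0.00413).

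SOX12, the third SoxC factor and the weakest activator of the group, read 826 and 867 with shBORIS and 618 and 535 with shLUC. Both shBORIS arrays were higher, with means of 846 ± 29.1 and 576 ± 59.0 (SD, n = 2 each), a deposited difference of 0.54 (SE 0.11; limma adjusted p = 3.76e-06), 1.46-fold. The relative difference of 0.07 (SE 0.06) did not pass (limma adjusted p = 0.335). It passed with no intensity filter (0.18, limma adjusted p = 0.0226). SOX12 also passed when the median gene was replaced by centring on all cellular probe sets (0.21, limma adjusted p = 0.0153) or by ERCC scaling (0.51, limma adjusted p = 2.51e-06). The deposited rise turned to -0.06 after quantile normalization (limma adjusted p = 0.364).

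The probe sets of SOX12 disagreed. Besides the brightest, 2 rose as deposited by 0.61 each, 1 reading 627 and 621 against 440 and 372 and the other 280 and 312 against 198 and 178. The fourth read 56.6 and 61.4 with shBORIS and 69.7 and 73.5 with shLUC, so its shBORIS arrays were the lower ones. Its difference was -0.23 as deposited (limma adjusted p = 0.0758) and -0.70 relative to the median gene (limma adjusted p = 5.74e-05).

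**Figure D2:**
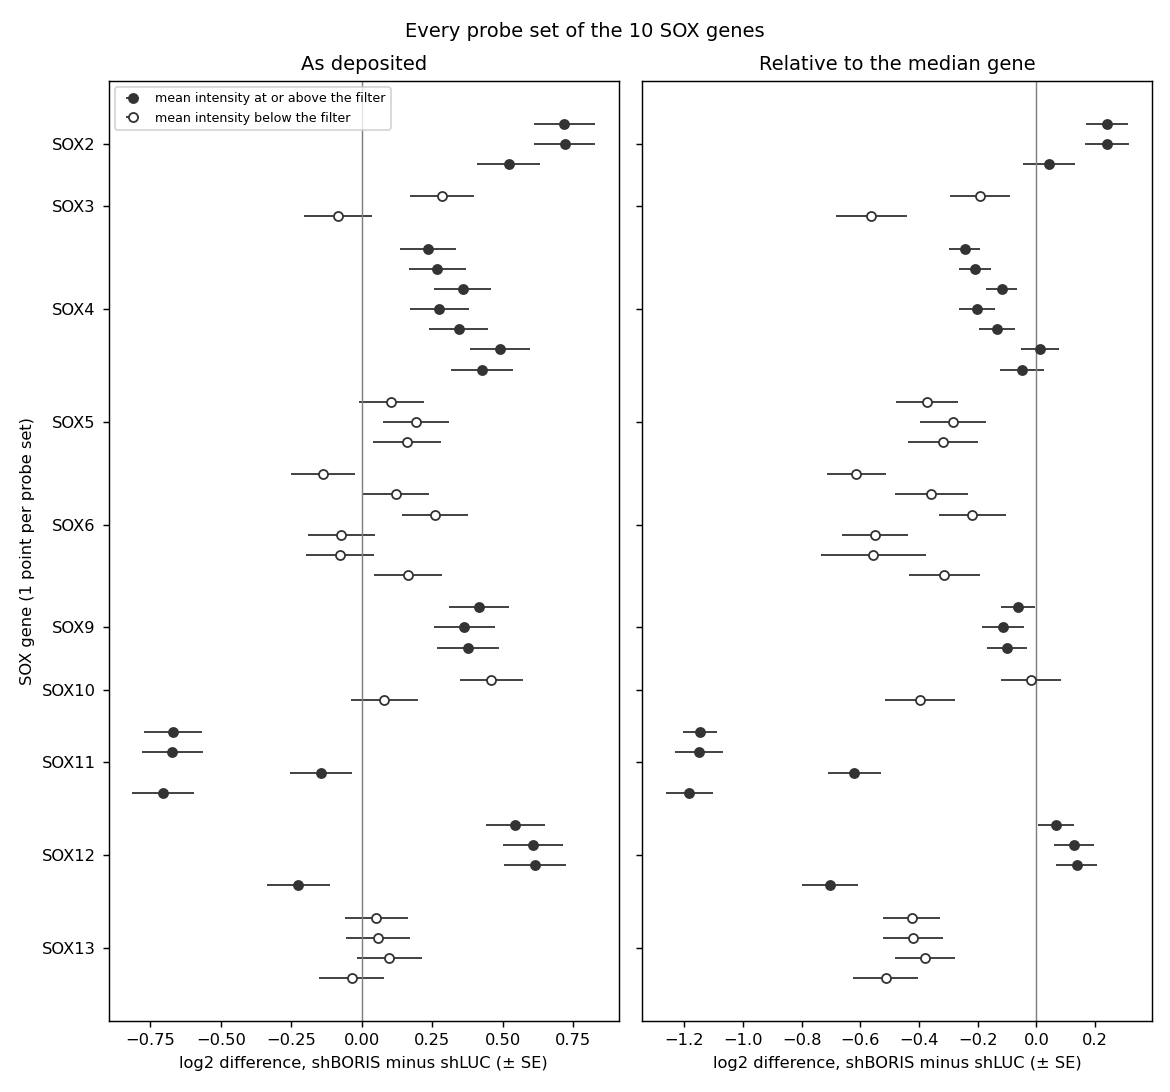
Log2 difference between shBORIS and shLUC for each of the 38 probe sets of the 10 SOX genes on both scales, with whiskers for the limma SE. Filled points are probe sets at or above the intensity minimum of 62.2 and open points those under it; all 4 SOX11 probe sets lie left of 0 in both panels, while the 7 of SOX4 lie right of 0 as deposited and from -0.24 to 0.01 relative to the median gene.

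SOX9, the SoxE factor of cartilage, neural crest and adult progenitors, rose as deposited and did not pass relative to the median gene. Its brightest probe set read 840 and 948 with shBORIS and 684 and 647 with shLUC, without overlap. The means were 894 ± 76.1 and 665 ± 26.5 (SD, n = 2 each), a deposited difference of 0.42 (SE 0.11; limma adjusted p = 4.14e-04), 1.33-fold, and a relative difference of -0.06 (SE 0.06; limma adjusted p = 0.355). All 3 of its probe sets rose as deposited, by 0.36 to 0.42, and their relative differences ran from -0.11 to -0.06, with limma adjusted p from 0.175 to 0.212 in the 2 dimmer ones. Without shBORIS replicate 2 the deposited calls of those 2 were lost (limma adjusted p = 0.0864 and 0.0595), and that of the dimmest was also lost without shLUC replicate 2 (limma adjusted p = 0.055). The deposited direction turned after quantile normalization (-0.19; limma adjusted p = 0.0148), and the rise was lost with centring on all cellular probe sets (0.084; limma adjusted p = 0.299).

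SOX10, the SoxE factor of Schwann cells and melanocytes, was dim. Its brighter probe set read 61.9 and 80.2 with shBORIS and 52.1 and 42.2 with shLUC, 0.46 higher as deposited (limma adjusted p = 1.28e-04) and -0.02 relative to the median gene (limma adjusted p = 0.882). The other read 23.2 and 31.3 against 23.8 and 25.7, with overlap between the groups.

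The SoxD genes SOX5, SOX6 and SOX13, whose proteins pair through a coiled coil and assist SOX9 in cartilage, were all under the intensity minimum. The brightest SOX5 probe set read 36.4 and 35.1 with shBORIS and 33.5 and 30.8 with shLUC, and its 3 probe sets differed by 0.10 to 0.19 as deposited, with a smallest limma adjusted p of 0.152. SOX13 read 58.4 and 57.9 against 55.2 and 55.8 with its brightest probe set, a deposited difference of 0.05 (limma adjusted p = 0.727), and the smallest limma adjusted p of its 4 was 0.492. Of 6 SOX6 probe sets 1 rose as deposited, reading 34.6 and 33.0 against 29.5 and 22.1, a difference of 0.26 (limma adjusted p = 0.0484).

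Counted over all 38 probe sets, 19 rose and 3 fell as deposited, where 51.8% of cellular probe sets rose and 3.22% fell. Relative to the median gene 2 rose and 22 fell, where 16.4% rose and 46.2% fell. The 3 that fell as deposited were all of SOX11. Of the 21 probe sets above the minimum, 16 rose and 3 fell as deposited, and 2 rose and 8 fell relative to the median gene. The shares of all probe sets above the minimum were 77.5% and 3.56% as deposited, and 29.9% and 26.8% on the relative scale. The 17 under it, with intensities of 13.0 to 80.2 on single arrays, had a median difference of 0.10 as deposited and -0.38 after the subtraction, and 14 of them fell on the relative scale, where 69.3% of all probe sets under the minimum fell. Since the same 0.48 is subtracted from every probe set, one whose deposited value is alike in both groups falls on that scale. None of the 38 was annotated to a second gene, but SOX HMG boxes are alike in sequence, and hybridisation between paralogs was not tested.

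**Figure D3:**
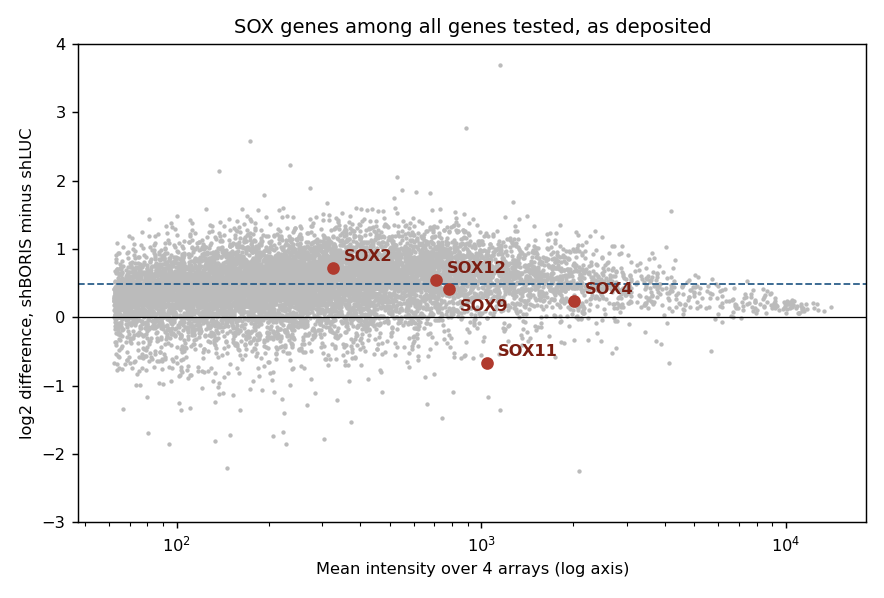
Log2 difference as deposited (vertical axis) against mean deposited intensity (horizontal axis, log scale) for all 10946 genes tested, with the dashed line at the median of 0.48. SOX2 and SOX12 lie above the line at 0.72 and 0.54, SOX9 and SOX4 below it at 0.42 and 0.23, and SOX11 below 0 at -0.67.

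A ratio of 2 genes on the same array does not depend on the array's scale factor, apart from the added 16. Among the 5 tested genes the log2 ratios of all 10 pairs did not overlap between the groups. Of all 59901985 pairs of tested genes 80.4% did not overlap either, so lack of overlap alone is the usual case. The changes largest in size all involved SOX11. The ratio of SOX2 to SOX11, set to the shLUC mean, was 1.40 and 1.37 with shBORIS and 0.12 and -0.12 with shLUC, a change of 1.39 (SE 0.13), or 2.62-fold. The ratio of SOX11 to its SoxC relative SOX12 was -1.25 and -1.18 against -0.09 and 0.09, a change of -1.21 (SE 0.10), 2.32-fold lower.

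The ratio of SOX9 to SOX11 changed by 1.08 (SE 0.04), 2.12-fold, and that of SOX4 to SOX11 by 0.90 (SE 0.08), 1.87-fold. Pairs without SOX11 changed less: SOX2 to SOX4 by 0.48 (SE 0.09), SOX4 to SOX12 by -0.31 (SE 0.05) and SOX2 to SOX9 by 0.30 (SE 0.10). The smallest changes were -0.18 for SOX4 to SOX9, 0.17 for SOX2 to SOX12 and -0.13 for SOX9 to SOX12, which became 0.00036 with averaged probe sets. With averaged probe sets SOX4 to SOX12 and SOX4 to SOX9 were both at -0.043, and after quantile normalization they were -0.19 and -0.068. SOX2 to SOX4 was 0.31 with averaged probe sets, and SOX2 to SOX12 ran from 0.12 to 0.27 over the settings. The pairs are given as a description with their SE and no p, since the smallest two-sided p of an exact permutation test is 0.333 with 2 arrays a group. Over 8 other settings the SOX2 to SOX11 change ran from 1.20 to 1.51 and the SOX11 to SOX12 change from -1.31 to -0.93.

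**Figure D4:**
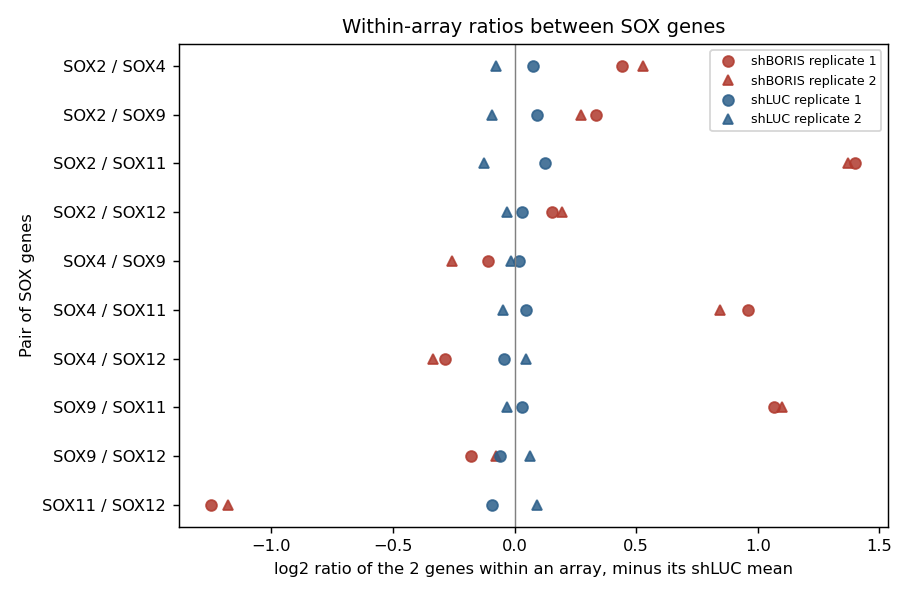
Log2 ratio of each pair of tested SOX genes on each array (horizontal axis, after subtracting the shLUC mean), with a point per array. The 4 pairs with SOX11 have shBORIS arrays 0.84 to 1.40 from 0 in size, and the 6 other pairs lie nearer to 0.

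Of 9 other SOX genes with probe sets, 2 were bright enough to test. SOX7, a SoxF factor of endothelium, read 110.6 ± 4.12 with shBORIS and 74.6 ± 5.99 with shLUC (SD, n = 2 each) and rose by 0.48 as deposited (limma adjusted p = 2.65e-05), equal to the shift of the median gene, and its relative difference was 0.0056 (limma adjusted p = 0.956). A dimmer SOX7 probe set above the minimum rose by 0.74 as deposited (limma adjusted p = 3.16e-10) and by 0.26 on the relative scale (limma adjusted p = 0.0274). SOX18, also SoxF, overlapped between the groups as deposited, with a difference of -0.02 (limma adjusted p = 0.898). On the relative scale it fell by 0.49 (limma adjusted p = 3.1e-04). With ERCC scaling in place of the median gene SOX18 did not pass (-0.052, limma adjusted p = 0.637).

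Genes that work with SOX proteins were read from lists and are described by counts alone. Of 14 tested cofactors and modifying enzymes, 9 rose and 2 fell on the relative scale, where 30.3% of all genes rose and 28.8% fell. Their median was 0.22 against 0.00137 over all genes. PIAS1, a SUMO ligase, rose by 0.50 (limma adjusted p = 1.25e-04). HDAC4, a class II histone deacetylase, fell by 0.75 relative to the median gene (limma adjusted p = 2.73e-05) and its deposited fall was -0.27 (limma adjusted p = 0.0193), a deposited call lost without shLUC replicate 1 (limma adjusted p = 0.148) or shBORIS replicate 1 (limma adjusted p = 0.0907), and the other gene that fell was the nuclear transport receptor XPO4. As deposited 13 of the 14 rose, with a median of 0.70, where 77.2% of all genes rose and the median was 0.48.

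Partner factors that bind DNA beside SOX proteins had 4 tested members, of which SALL4 rose and MITF and POU3F1 fell relative to the median gene. Of all genes, 30.3% rose and 28.8% fell on that scale. MITF, the melanocyte regulator, fell by 0.42 (limma adjusted p = 0.00215) and POU3F1 by 0.24 (limma adjusted p = 0.0153), a call lost without shLUC replicate 1 (limma adjusted p = 0.0681) or shBORIS replicate 1 (limma adjusted p = 0.0858). As deposited MITF overlapped between the groups, with a difference of 0.06 that did not pass (limma adjusted p = 0.645). With ERCC scaling in place of the median gene MITF did not pass (0.021, limma adjusted p = 0.864) and POU3F1 was higher, at 0.21 (limma adjusted p = 0.0499). Of 8 tested TCF/LEF and TOX relatives with an HMG box, CIC, HBP1 and TOX4 rose and TOX, TOX2 and TOX3 fell relative to the median gene. Both counts stand against the same 30.3% and 28.8% of all genes. CIC, a repressor of receptor tyrosine kinase targets, rose by 0.48 (limma adjusted p = 2.44e-04), and TOX2 fell by 0.64 (limma adjusted p = 1.05e-04) with a deposited difference of -0.16 that did not pass (limma adjusted p = 0.16). With ERCC scaling in place of the median gene TOX2 did not pass (-0.19, limma adjusted p = 0.0628).

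Of 10 tested SoxB1 progenitor targets 3 rose and 4 fell relative to the median gene, near the shares of all genes (30.3% and 28.8%), and their median was -0.14. LIN28A, an RNA-binding protein that blocks let-7 maturation, read 390 and 406 with shBORIS and 77.4 and 67.1 with shLUC, 1.76 higher (limma adjusted p = 1.07e-07). VIM, the intermediate filament vimentin, read 180 and 212 against 488 and 457 and fell by 1.69 (limma adjusted p = 1.11e-07).

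Of 8 tested SoxC neuronal targets 3 rose and 4 fell on the same scale, against the same 30.3% and 28.8% of all genes, and their median was -0.19. DBN1, an actin-binding protein of dendritic spines, rose by 0.57 (limma adjusted p = 1.34e-05), and MAP2, the dendritic microtubule protein, fell by 0.65 (limma adjusted p = 1.04e-05) with a deposited difference of -0.18 that did not pass (limma adjusted p = 0.135). As deposited, 4 of the 8 rose, where 77.2% of all genes did, and the median of the 8 was 0.29.

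Of 4 tested SoxE targets of crest, glia and pigment cells RET rose and MITF fell relative to the median gene. On that scale, used for all values here not called deposited, 30.3% of all genes rose and 28.8% fell. RET, the receptor of the GDNF family, read 673 and 707 against 282 and 248 and rose by 0.85 (limma adjusted p = 2.35e-06). Of 3 tested cartilage targets of SoxE and SoxD, COL9A3 fell by 0.55 (limma adjusted p = 4.04e-04) and COL2A1 by 0.21 (limma adjusted p = 0.00686), while COL2A1 rose by 0.26 as deposited (limma adjusted p = 0.0269). The deposited rise of COL2A1 was lost without shBORIS replicate 2 (0.20) or shLUC replicate 2 (0.22) and turned to -0.34 after quantile normalization. With ERCC scaling in place of the median gene COL9A3 did not pass (-0.11, limma adjusted p = 0.299) and COL2A1 was at 0.23. The other 10 genes of the SoxE list and 9 of the cartilage list were too dim or had no probe set of their own.

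Markers of the labelled cell type were bright. All 10 adrenergic neuroblastoma markers with a probe set of their own passed the minimum. Relative to the median gene 2 rose and 7 fell, where 30.3% of all genes rose and 28.8% fell. PHOX2A fell by 0.65 on that scale (limma adjusted p = 6.01e-06), with a deposited difference of -0.17 that did not pass (limma adjusted p = 0.145). With ERCC scaling in place of the median gene PHOX2A did not pass (-0.21, limma adjusted p = 0.0511). The summed intensity of the 10 markers was 26549 and 27619 with shBORIS and 20472 and 19561 with shLUC. CHGA, a secretory granule protein, took much of the difference in that sum, at 6272 and 6239 against 2292 and 1974. Of 5 Schwann and glial markers 2 passed, NGFR and GFAP, and the sum was 450 to 504 with shBORIS and 509 to 559 with shLUC. NGFR, the largest part of that sum, read 282 and 322 against 395 and 353. It fell by 0.30 as deposited (limma adjusted p = 0.0107) and by 0.77 relative to the median gene (limma adjusted p = 6.01e-06). The deposited fall was lost with averaged probe sets (-0.096, limma adjusted p = 0.32) and with the replicate block (limma adjusted p = 0.0844). It was also lost without shBORIS replicate 1 (-0.20) or shLUC replicate 1 (-0.22). GFAP rose by 0.33 as deposited (limma adjusted p = 0.00506), and its relative difference of -0.14 did not pass (limma adjusted p = 0.181). Under the minimum, S100B lay at 28.7 to 40.7. Of 8 fibroblast and mesenchymal markers 4 passed, the sum was 1867 to 2105 with shBORIS and 2070 to 2170 with shLUC, and COL1A1 and VIM fell on both scales. The others that passed, FN1 and PDGFRB, rose as deposited, by 0.62 (limma adjusted p = 1.41e-07) and 0.43 (limma adjusted p = 1.43e-04), where 77.2% of all genes rose. Relative to the median gene neither passed the test, with differences of 0.14 (limma adjusted p = 0.123) and -0.05 (limma adjusted p = 0.51). Of 6 endothelial and immune markers only CD68 passed, the sum was 253 to 261 with shBORIS and 230 to 268 with shLUC, and the leukocyte marker PTPRC lay at 10.8 to 15.9, in the range of the background. The part of these markers in the changes of SOX11 and SOX2 was not tested.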

How the data were processed

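Per the labels' protocols, total RNA was spiked with ERCC RNA and 100 ng was labelled for Affymetrix PrimeView arrays. The authors deposited linear probe set intensities, 1 column per array. MAS5, affy and R 3.1.3 appear in the submitters' processing notes with no role, and the scaling between arrays was not given in the sources used here. Of 49495 probe sets, 102 Affymetrix and 100 ERCC controls were left out of tests; 45278 had 1 symbol, 1333 several and 2682 none. Symbols were updated through Entrez identifiers for 45208.

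Genes were represented by their probe set with the highest mean, and those under the 40th percentile were left out (7298 of 18244). A model with the hairpin as its only term was fitted to log2(intensity + 16) with limma 3.58.1 in R 4.3.3 (trended prior, 2 residual degrees of freedom, Benjamini-Hochberg threshold 0.05), and again with the median of the tested genes subtracted on each array. As deposited the prior had infinite degrees of freedom, so each SE came from the trend with intensity and not from a gene's own duplicates. Very small p-values therefore overstate the precision that 4 arrays give. Single probe sets were fitted over all 49293 without a filter. The number of arrays limits the precision. The script was tested on simulated data. The SOX genes and all lists were chosen with earlier results of these data known. The text names every SOX gene and, with values, up to 2 genes of each other list with the smallest p relative to the median gene; others named were chosen after their values were seen. Alternatives were pseudocounts of 1 and 64, other filters, quantile normalization, other centrings, averaged probe sets, a replicate block and leaving out each array. Quantile normalization and the other centrings, on ERCC or on all cellular probe sets, took the place of the median-gene subtraction. Each therefore gave the same fit under both scales.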

Additional observations from a re-analysis of the deposited data

How the results depend on the processing

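The calls of SOX11 kept their direction and their side of the threshold under all 14 alternatives on both scales. Quantile normalization, ERCC scaling and centring on all cellular probe sets are the same fit under both scales and count there only once. The cause of the changes listed here was not tested. As deposited, 4 SOX genes rose and 1 fell; quantile normalization gave 0 and 3, and centring on all cellular probe sets gave 2 rises. Over all genes these settings gave 2941 and 5012 rises and 3102 and 1908 falls. The filter at the 60th percentile, with fewer genes tested, gave 273 falls. Relative to the median gene, where 1 SOX gene rose and 2 fell, rises numbered 0 after quantile normalization, 4 with ERCC scaling, 2 with centring on all cellular probe sets, 2 with no filter, 0 with the filter at the 60th percentile, and 0 to 1 with 1 array left out. Falls numbered 1 with ERCC scaling, 1 with centring on all cellular probe sets, 5 with no filter and 1 with averaged probe sets. Over all genes the rises were 8233 with ERCC scaling, 5012 with centring on all cellular probe sets and 2202 with the filter at the 60th percentile. The falls were 592, 1908 and, with no filter, 5053. The filter settings changed how many genes were tested. The 60th percentile left fewer than the 10946 of the main fit, and no filter left all 18244, with all 10 SOX genes among them. Counts under these settings thus have other totals and are not by themselves changes in the share called.

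Directions turned as follows. As deposited, quantile normalization gave -0.26 for SOX4, -0.19 for SOX9, -0.065 for SOX12, -0.27 for MITF, -0.23 for POU3F1 and -0.34 for COL2A1, centring on all cellular probe sets gave -0.10 for SOX4, -0.27 for MITF, -0.089 for POU3F1 and -0.069 for COL2A1, and averaged probe sets gave -0.081 for MITF and 0.041 for TOX2. ERCC scaling takes the place of the median-gene subtraction, so its values are close to the deposited ones. It gave 0.20 for SOX4, 0.38 for SOX9, 0.021 for MITF, 0.21 for POU3F1 and 0.23 for COL2A1. All of these were below 0 relative to the median gene. Among the alternatives to the relative scale, SOX9 was 0.084 with centring on all cellular probe sets and 0.053 with no filter. SOX12 was -0.065 after quantile normalization, -0.0032 with the filter at the 60th percentile and -0.052 with averaged probe sets, and SOX7 was -0.072 with a pseudocount of 64. The ratio of SOX9 to SOX12 was 0.00036 with averaged probe sets. With 1 array left out, deposited differences ran from -0.12 to 0.087 for SOX18, -0.23 to 0.085 for COL9A3, -0.034 to 0.15 for MITF and -0.17 to 0.034 for CD68, and relative ones from -0.0089 to 0.020 for SOX7, -0.044 to 0.13 for the dimmest SOX2 probe set and -0.042 to 0.066 for a SOX4 probe set. The lone array of a group is then assumed to vary like the other group, with 1 residual degree of freedom. Leave-one-out fits of single probe sets and all settings for ratios were chosen after seeing the data.

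The labels give replicate numbers but no shared day or batch, so the numbers were not used as pairs in the main fits. Same-numbered arrays deviated together with a correlation of 0.0979. With the replicate block, 3 SOX genes rose and 1 fell as deposited, and 1 rose and 2 fell relative to the median gene; SOX4 as deposited kept 0.23 with a limma adjusted p of 0.187. Over all genes the block gave 7628 rises and 384 falls as deposited and 3460 and 3229 on the relative scale. Dim SOX genes are limited by their low signal. The background probe sets had medians of 15.4 to 16.9, and the highest of them read 1731 to 2509, depending on the array.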

Other observations

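The genes that flank the 5 tested SOX genes were read after the values of the SOX genes had been seen. In the order of RefSeq genes on GRCh38.p14, the nearest 3 tested genes on each side were taken, and all differences are relative to the median gene, a scale on which 30.3% of all genes tested rose and 28.8% fell. Around SOX2, 4 of 6 neighbours rose and the other two did not pass limma's test, with a median of 0.23. They were TTC14 at 0.25, FXR1 at 0.03, DNAJC19 at 0.26, ATP11B at -0.05, DCUN1D1 at 0.71 and MCCC1 at 0.21. DCUN1D1, a factor of cullin neddylation, differed most.

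Around SOX11, 2 neighbours of 6 rose and 3 fell, and their median was -0.15 against the SOX11 difference of -1.15. They were ADI1 at 0.63, RNASEH1 at -0.02, RPS7 at -0.29, CMPK2 at -0.46, RNF144A at -0.28 and ID2, an inhibitor of bHLH factors, at 0.44. No neighbour of SOX11 had a difference as far below 0 as SOX11. Around SOX4, 3 of 6 fell and the others did not pass, with a median of -0.14 and the lowest value for ALDH5A1 at -0.79. Around SOX9, 4 of 6 fell and MAP2K6 rose; their median was -0.38 and the lowest value for WIPI1 at -1.09. Of 5 tested neighbours of SOX12, 4 fell and ZCCHC3 did not pass, with a median of -0.33, from TRIB3 at -0.54 to ZCCHC3 at 0.11.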
